A study of Macaca mulatta with 12 samples.

Results

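HSD3B2, FDX1 and FDXR were followed across 12 corpora lutea of rhesus macaques. The members were the probe sets that the platform annotation gives to exactly 1 of these 3 symbols, whatever their values: 6 of the 52707 probe sets tested, with 1 for HSD3B2, 3 for FDX1 and 2 for FDXR. Total RNA of each gland went onto its own one-colour Affymetrix rhesus array. The late regressed group held 4 glands taken 14 to 16 days after the midcycle LH surge, from females whose serum progesterone was below 0.5 ng/ml that day. The late functional group held 4 glands of the same days, from females with serum progesterone above 1.5 ng/ml. The mid-late group, the baseline of the study, held 4 glands taken 10 to 12 days after the surge. All females had normal menstrual cycles, no treatment is named for any group, and each array was a biological replicate.

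The corpus luteum forms from the ovulated follicle and is the main source of progesterone in the luteal phase. In its cells cholesterol enters the mitochondrion through STAR, and the mitochondrial cytochrome CYP11A1 cuts its side chain to give pregnenolone. CYP11A1 receives the electrons for this step from a short chain: FDXR (adrenodoxin reductase) takes them from NADPH, and FDX1 (adrenodoxin), a small iron-sulfur protein, carries them to the cytochrome. HSD3B2, a hydroxysteroid dehydrogenase and isomerase that uses NAD, turns pregnenolone into progesterone and needs neither ferredoxin nor its reductase. In human cells FDX1 also serves protein lipoylation, while its relative FDX2 serves the assembly of iron-sulfur clusters. Probe sets for CYP11A1 alone or HSD3B1 alone are not analysed here, so the values cover the electron supply and the last step, not the cleavage between them.

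Late regressed arrays 2 and 3 stood apart from the other 10. They lay at 93.2 and 81.6 on the first principal component, which held 40.8% of the variance, while the others lay between -43.0 and 12.6. The mean of 4 measured luteal marker genes that are not members (STAR, NR5A1, CYP19A1 and INHA, of 8 listed) was 10.76, 8.19, 8.30 and 10.13 on late regressed arrays 1 to 4. It ran from 10.95 to 11.22 on late functional and from 11.00 to 11.37 on mid-late arrays, and was lowest on late regressed arrays 2 and 3. With no other tissue for comparison, these means do not test the luteal label. The 3′ to 5′ difference of the control probe sets, a sign of RNA quality, was 2.52 on late regressed array 2 and between 0.46 and 0.70 on the other 11. The mean of 13 measured macrophage markers was 9.04 on late regressed array 3 and at most 8.20 on the others, with 6.36 to 7.92 on mid-late arrays. Endothelial markers (11 measured) averaged 8.65 to 9.04 on late regressed, 8.67 to 8.79 on late functional and 8.49 to 8.64 on mid-late arrays, and fibroblast markers (10 measured) 8.24 to 8.45 on late regressed, 7.97 to 8.26 on late functional and 7.57 to 8.35 on mid-late arrays. Markers of T and NK cells, of smooth muscle and of red blood cells overlapped between late regressed and mid-late arrays. What part any of these had in the members' results was not tested. The RNA came from whole glands, in which fewer luteal cells and less RNA per luteal cell cannot be told apart. Members' late regressed against mid-late results are therefore given with and without those 2 arrays, and so are those of other called genes where leaving them out ends the call or changes the difference by more than 1.5 times.

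HSD3B2 was the member with the largest differences from mid-late glands. It was lower in late regressed than in mid-late glands on every array, 8.63-fold on average, and in late functional glands it lay between the other groups. On the log2 scale of the deposited values, the probe set read 8.52, 9.04, 7.93 and 8.70 on late regressed arrays 1 to 4. It read 10.52, 10.43, 9.88 and 9.04 on late functional arrays 1 to 4. On mid-late arrays 1 to 4 it read 11.64, 12.05, 11.16 and 11.78. No late array of either group reached the lowest mid-late value, while late functional array 4 and late regressed array 2 met at 9.04. Late regressed array 2, one of the arrays that stood apart, was thus the highest of its group in HSD3B2.

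Group means of HSD3B2 were 8.55 ± 0.47 in late regressed, 9.97 ± 0.68 in late functional and 11.66 ± 0.38 in mid-late glands (SD, n = 4 each). The late regressed minus mid-late difference was -3.11 (SE 0.33, 95% interval -3.83 to -2.39), with limma's adjusted p = 0.00548. HSD3B2 was called in all 12 fits that left out 1 array, and the difference was -3.05 (limma's adjusted p = 0.0243) without late regressed arrays 2 and 3. On late regressed array 1, where HSD3B2 read 8.52, the mean of the other luteal markers was 10.76. That was the highest of its group but below every late functional (10.95 or more) and mid-late array (11.00 or more). What part luteal cell content had in the HSD3B2 value was not tested.

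Between late functional and mid-late glands HSD3B2 differed by -1.69 (SE 0.33, 95% interval -2.41 to -0.97), a 3.22-fold lower level, with limma's adjusted p = 0.0435. The arrays of the 2 groups did not overlap. The call lay close to the threshold: it was kept in 2 of 12 fits that left out 1 array, those without late regressed array 2 (limma's adjusted p = 0.0339) or 3 (limma's adjusted p = 0.0371), and the difference ran from -1.87 to -1.38 over the 12. Without both of those arrays limma's adjusted p was 0.0187. Between late regressed and late functional glands the difference was -1.42 (95% interval -2.14 to -0.70), 2.68-fold, with limma's adjusted p = 0.174. That comparison did not pass, although it passed without late functional array 4 (-1.73, limma's adjusted p = 0.0391). In order of level, HSD3B2 thus stood lowest in late regressed, then late functional, then mid-late glands, and the test did not separate late regressed from late functional glands. Against the midpoint of the other groups the late functional mean differed by -0.13 (95% interval -0.75 to 0.49, limma's adjusted p = 0.914).

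The HSD3B2 value rests on a single probe set. A further probe set is annotated to LOC713156 and HSD3B2 together and was left out by the rule; it read 3.22 to 3.37 on late regressed, 3.08 to 3.34 on late functional and 3.42 to 3.68 on mid-late arrays. All of these values lie below 4.64, the 95th percentile of the 674 probe sets whose identifier starts with NC, a set of mostly low values used here as a background level. Primate HSD3B genes come as closely similar copies, so how far the probe set separates HSD3B2 from its copies is uncertain.

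**Figure D1:**
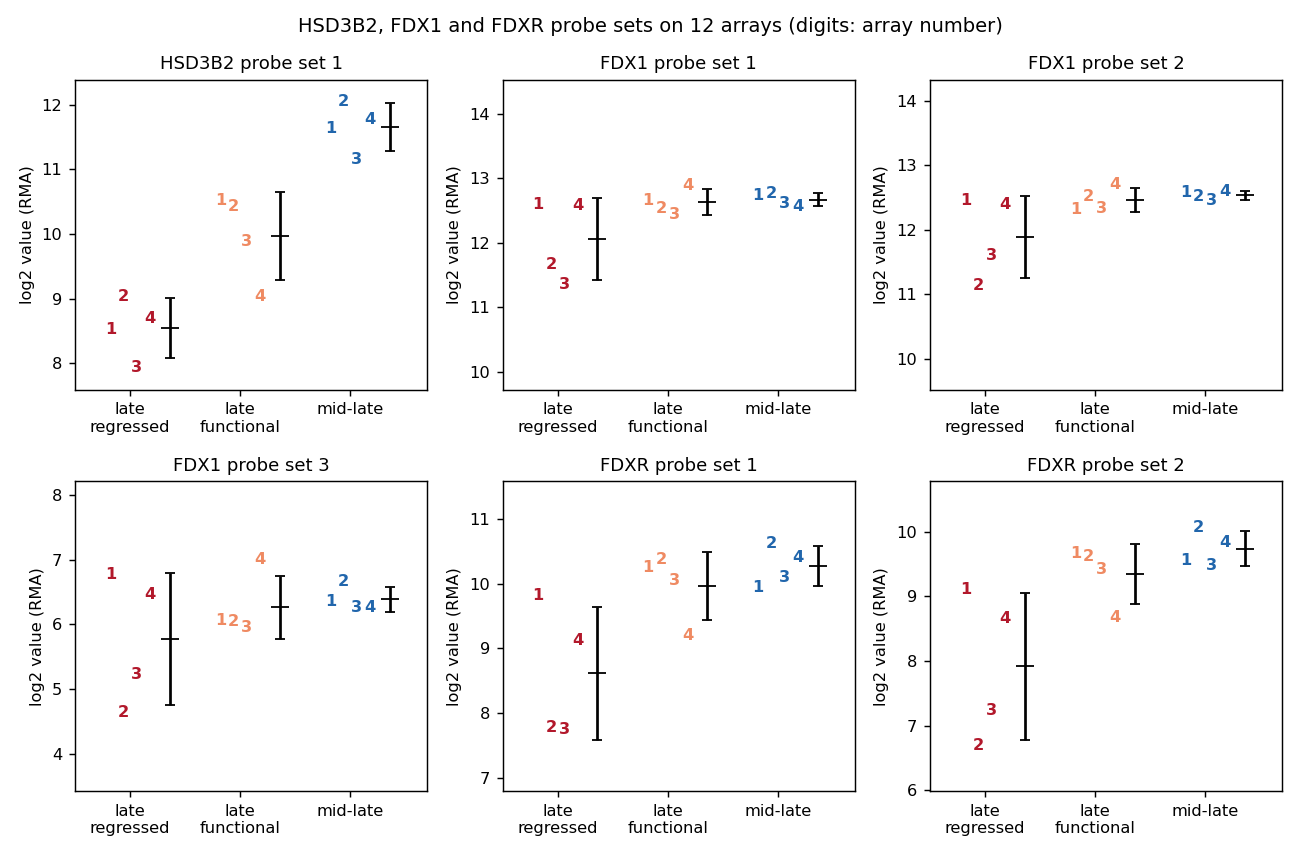
Log2 values of the 6 probe sets (vertical axes) on late regressed, late functional and mid-late arrays (left to right). Digits are array numbers and bars are group means ± SD (n = 4). HSD3B2 is low on all late regressed arrays and high on all mid-late arrays, whereas FDX1 is low on late regressed arrays 2 and 3. FDXR is lowest on those 2 arrays and lies below all mid-late arrays on every late regressed array. Each vertical axis has its own origin.

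FDX1 did not pass the test in any comparison, and its 2 brighter probe sets were low on the same 2 arrays. Probe set 1 read 12.60, 11.67, 11.36 and 12.58 on late regressed arrays 1 to 4. On late functional arrays it read 12.66, 12.53, 12.44 and 12.89, and on mid-late arrays 12.74, 12.76, 12.61 and 12.56. Late regressed arrays 1 and 4 lay within the range of the functional and mid-late glands, whereas arrays 2 and 3 lay below every other array. The group means were 12.05 ± 0.63 in late regressed, 12.63 ± 0.20 in late functional and 12.67 ± 0.10 in mid-late glands (SD, n = 4 each).

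The late regressed minus mid-late difference of FDX1 probe set 1 was -0.62 (SE 0.25, 95% interval -1.15 to -0.08, limma's adjusted p = 0.12). Without late regressed array 1 it was -0.80, with limma's adjusted p = 0.0445, and without arrays 2 and 3 it was -0.08 (limma's adjusted p = 0.766). Against late functional glands the late regressed difference was -0.58 (95% interval -1.12 to -0.04, limma's adjusted p = 0.387), and -0.04 without late regressed arrays 2 and 3. Late functional minus mid-late glands gave -0.04 (95% interval -0.57 to 0.50, limma's adjusted p = 0.954). No neighbouring pair of groups was therefore separated in FDX1 level.

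The other FDX1 probe sets had the same pattern over arrays. Probe set 2 read 12.45, 11.14, 11.60 and 12.39 on late regressed arrays, 12.32 to 12.71 on late functional and 12.45 to 12.59 on mid-late arrays. Its late regressed minus mid-late difference was -0.63 (limma's adjusted p = 0.109), and -0.11 without late regressed arrays 2 and 3. Probe set 3, of much lower signal, read 6.78, 4.63, 5.23 and 6.47 on late regressed, 5.96 to 7.00 on late functional and 6.26 to 6.66 on mid-late arrays. Its difference of -0.61 (limma's adjusted p = 0.349) turned to 0.24 without late regressed arrays 2 and 3, where it read 4.63 and 5.23. Over the 12 arrays, the 3 probe sets correlated with each other at Pearson's r of 0.88 to 0.93, as a description of arrays that share the low pair.

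FDXR, which feeds FDX1 with electrons, was lower in late regressed than in mid-late glands by both of its probe sets. Probe set 1 read 9.82, 7.78, 7.74 and 9.12 on late regressed arrays 1 to 4. It read 10.25, 10.37, 10.05 and 9.20 on late functional arrays, and 9.95, 10.63, 10.10 and 10.41 on mid-late arrays. All late regressed arrays lay below all mid-late arrays, array 1 only narrowly, and arrays 2 and 3 lay far below the rest. Late functional array 4 was the lowest of its group and lay close to late regressed array 4. Mid-late array 1 was the lowest of its group. Late regressed arrays 2, 3 and 4, late functional array 4 and mid-late array 1 were also the 5 arrays that read 4.37 to 11.52 in 4 probe sets whose identifier starts with MmuMitochon, against 12.05 to 14.32 on the other 7. What part this had in the FDXR result was not tested.

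The group means of FDXR probe set 1 were 8.62 ± 1.03 in late regressed, 9.96 ± 0.53 in late functional and 10.27 ± 0.31 in mid-late glands (SD, n = 4 each). Late regressed minus mid-late was -1.66 (SE 0.43, 95% interval -2.60 to -0.72), 3.16-fold, with limma's adjusted p = 0.0354. The call was kept in 4 of 12 fits that left out 1 array (without late regressed array 1 or 4 or late functional array 2 or 4), and the difference was -0.80 (limma's adjusted p = 0.191) without late regressed arrays 2 and 3. Probe set 2, which followed probe set 1 at r = 0.99 over the 12 arrays, read 9.10, 6.69, 7.23 and 8.65 on late regressed, 8.68 to 9.67 on late functional and 9.48 to 10.07 on mid-late arrays. In probe set 2 late functional array 4 (8.68) was again the lowest of its group, while mid-late array 1 (9.56) was above mid-late array 3 (9.48). Between late regressed and mid-late glands it differed by -1.82 (SE 0.45, limma's adjusted p = 0.0312), was called in 6 of 12 such fits, and was not called without the same 2 arrays (-0.86, limma's adjusted p = 0.114).

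Neither FDXR probe set passed in the other comparisons. Late regressed minus late functional was -1.35 for probe set 1 (95% interval -2.29 to -0.41, limma's adjusted p = 0.268) and -1.43 for probe set 2 (limma's adjusted p = 0.267). Without late regressed array 1 these were -1.75 (limma's adjusted p = 0.0408) and -1.82 (limma's adjusted p = 0.0491), and without late regressed arrays 2 and 3 they were -0.49 and -0.47 (limma's adjusted p = 0.857 and 0.81). Late functional minus mid-late was -0.31 (95% interval -1.25 to 0.63, limma's adjusted p = 0.742) and -0.39 (limma's adjusted p = 0.687). In order of level, FDXR stood lowest in late regressed, then late functional, then mid-late glands, and neither pair of neighbours was separated.

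Counted together, 3 of the 6 probe sets were called lower in late regressed than in mid-late glands (HSD3B2 and both of FDXR), where 4.61% of all probe sets tested were called lower and 10.0% in either direction. The same 3 had no overlap between arrays of those groups, against 9.26% of all probe sets that lay lower without overlap. In late functional against mid-late glands, 1 of the 6 was called lower (HSD3B2), against 0.560% of all called lower and 0.892% called in either direction. HSD3B2 was also the 1 member without overlap there, against 8.53% of all that lay lower without overlap. Between late regressed and late functional glands limma called 0 of the 6, where 1 of all probe sets (0.00190%) was called and 11.8% had an unadjusted p under 0.05. At that unadjusted level 5 of the 6 members passed, all but FDX1 probe set 3. In limma's F test for any difference among the 3 groups, HSD3B2 passed (adjusted p = 0.0106), the FDXR probe sets had adjusted p = 0.0696 and 0.0638, and those of FDX1 0.177 to 0.533, while 4.91% of all passed. Against the midpoint of the other groups limma called 0 of the 6 late functional means, where 0.0190% of all were called, and 0 of the 6 had an unadjusted p under 0.05, against 9.08% of all.

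**Figure D2:**
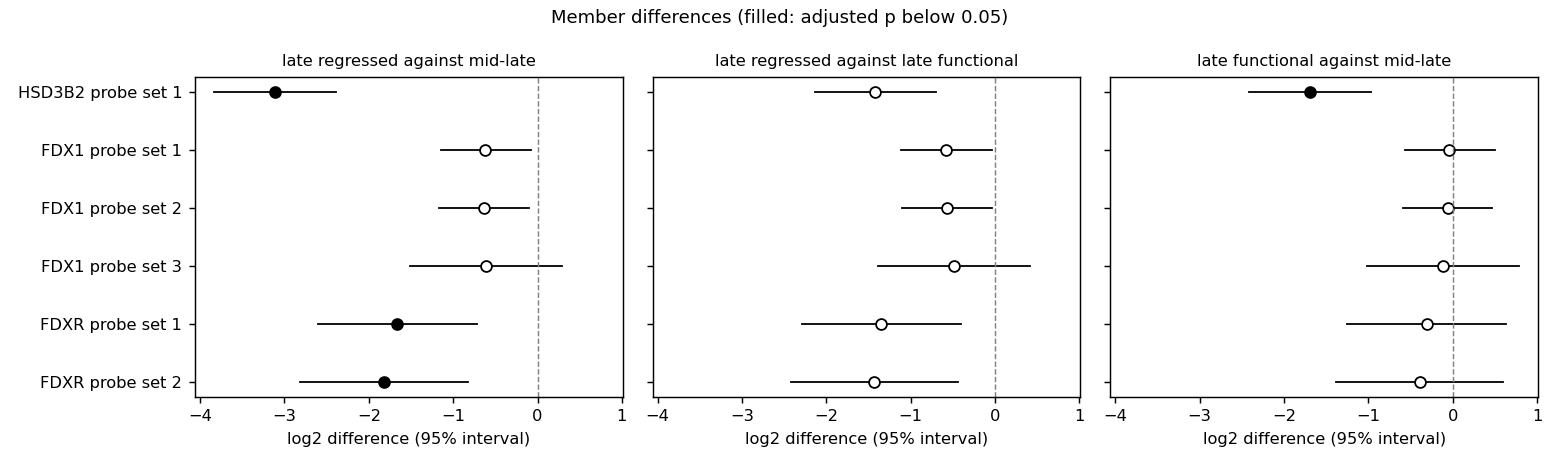
Log2 differences of the 6 probe sets with 95% intervals from limma, as late regressed minus mid-late (left), late regressed minus late functional (middle) and late functional minus mid-late glands (right). Filled circles have an adjusted p below 0.05: HSD3B2 at -3.11 and FDXR at -1.66 and -1.82 on the left, and HSD3B2 at -1.69 on the right.

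Whether the members changed by unequal amounts was tested on the difference between their probe sets within each array, taking the brightest probe set of each gene. HSD3B2 minus FDX1 averaged -3.50 ± 0.65 in late regressed, -2.66 ± 0.82 in late functional and -1.01 ± 0.34 in mid-late glands (SD, n = 4 each). Its arrays did not overlap between late regressed and mid-late glands (-2.49) or between late functional and mid-late glands (-1.65), each with an exact two-sided permutation p = 0.0286, the smallest that 4 against 4 arrays can give. HSD3B2 minus FDXR averaged -0.07 ± 1.08 in late regressed, 0.00 ± 0.21 in late functional and 1.38 ± 0.26 in mid-late glands (SD, n = 4 each). The late regressed shift against mid-late glands was -1.45 (exact permutation p = 0.0571), and its arrays overlapped, from -1.30 to 1.26 in late regressed and from 1.06 to 1.69 in mid-late glands. The late functional minus mid-late shift of -1.38 was at the smallest exact permutation p of 0.0286, and HSD3B2 was thus lower relative to FDXR in each late functional gland than in any mid-late one.

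FDX1 minus FDXR averaged 3.44 ± 0.47 in late regressed, 2.67 ± 0.70 in late functional and 2.39 ± 0.32 in mid-late glands (SD, n = 4 each). The late regressed shift against mid-late glands was 1.04 (exact permutation p = 0.0571), and its arrays overlapped. After Benjamini-Hochberg adjustment over the 9 comparisons, the 3 exact permutation tests at the smallest p had 0.0858 and the others 0.103 to 0.857, so none passed. With 4 against 4 arrays, a few tests at the smallest p cannot pass this adjustment even without overlap. Failing it therefore does not show equal change. A difference within an array shows unequal change only, and neither gene of a pair is thereby shown to be stable.

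The genes whose log2 values followed each member most closely over the 12 arrays were taken from 8829 named genes. Their mean over the 12 arrays was above the background level of 4.64. For HSD3B2 they were HSD11B1, which regenerates cortisol from cortisone (r = 0.976), the defensin genes DEFB122 (0.968) and DEFB119 (0.955), the neuronal pentraxin NPTX2 (0.967), and AREG, which encodes the EGF receptor ligand amphiregulin (0.952). After the group means were taken out, r was 0.767 to 0.902. DEFB119 passed the background level through its mid-late values (5.84 to 6.88). It read 3.52 to 3.91 on late regressed arrays and 4.35 and 3.71 on late functional arrays 3 and 4, all below 4.64. Its r thus rests in part on background values. HSD11B1 read 8.99, 8.31, 7.31 and 8.25 on late regressed arrays, 10.37, 10.25, 9.70 and 8.54 on late functional arrays, and 10.92 to 11.59 on mid-late arrays. As with HSD3B2, late functional array 4 was the lowest of its group in all 5 of these genes. AREG read 8.69 on that array, against 10.29 to 11.63 on the other late functional arrays.

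FDX1 was followed most closely by SERPIND1 (heparin cofactor II, r = 0.977), the deubiquitinase gene USP13 (0.975), ITPR1, a calcium channel of the endoplasmic reticulum (0.973), SCAP, the escort of sterol-sensing transcription factors (0.972), and INHA, the inhibin alpha subunit (0.970). With group means removed r stayed between 0.950 and 0.972. SERPIND1 read 8.89, 4.23, 4.18 and 8.40 on late regressed arrays, 8.25 to 9.64 on late functional and 8.44 to 8.68 on mid-late arrays. Its values on late regressed arrays 2 and 3 lay below the background level of 4.64, so its r rests in part on background values. INHA read 12.25, 9.65, 9.49 and 12.47 on late regressed arrays, 12.26 to 12.55 on late functional and 12.49 to 12.67 on mid-late arrays. In these genes as in FDX1, late regressed arrays 2 and 3 were low, arrays 1 and 4 were near the other glands, and late functional array 4 was the highest of its group.

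FDXR was followed most closely by SLC25A4, a mitochondrial ADP/ATP carrier (r = 0.985), STXBP6 (0.985), NDUFA7, a subunit of respiratory complex I (0.982), ATPAF2, an assembly factor of the ATP synthase (0.979), and the glypican GPC6 (0.976). With group means removed r was 0.957 to 0.979. Of these 5, NDUFA7 was called lower in late regressed than in mid-late glands (-0.72, limma's adjusted p = 0.0282), though only in 6 of 12 fits that left out 1 array and not without late regressed arrays 2 and 3 (-0.37, limma's adjusted p = 0.149). The others had limma's adjusted p = 0.0517 to 0.0755. A second GPC6 probe set was called (-1.79, limma's adjusted p = 0.0489), but not without the same 2 arrays (-0.82, limma's adjusted p = 0.297). NDUFA7 read 9.48, 8.59, 8.60 and 9.10 on late regressed arrays, 9.35 to 9.65 on late functional and 9.57 to 9.82 on mid-late arrays. These correlations are descriptions over 12 arrays that share 2 low late regressed ones.

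**Figure D3:**
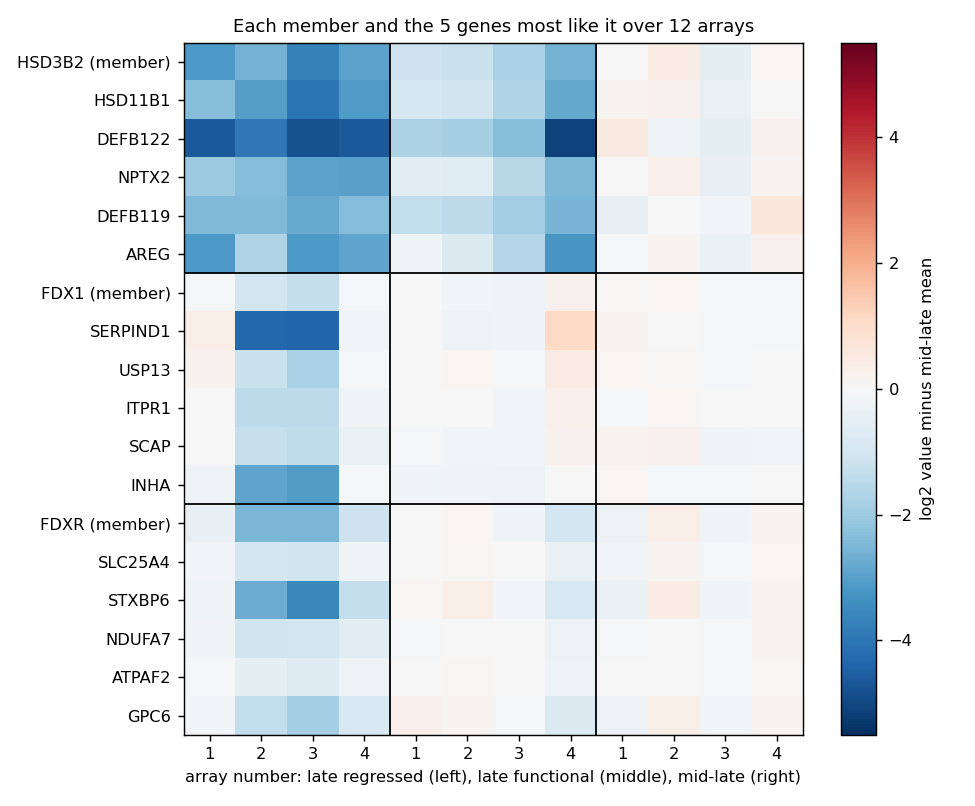
Log2 value minus the mid-late mean (colour) of HSD3B2, FDX1 and FDXR and the 5 genes most like each (rows), on late regressed, late functional and mid-late arrays (columns, left to right). The HSD3B2 block is low on all 4 late regressed arrays and on late functional array 4, whereas the FDX1 block is low on late regressed arrays 2 and 3 and the FDXR block is lowest there.

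Lists of pathway genes around the members were counted in late regressed against mid-late glands, members left out, beside a median log2 difference of -0.02 and 13.1% called over all 14132 genes, of which 35.8% had an unadjusted p under 0.05. Of 11 measured genes of progesterone synthesis and its regulators, 2 fell and none rose, with a median of -0.33. At limma's unadjusted p under 0.05 there were 7 of the 11, all lower. The 2 called were MRAP, the melanocortin receptor accessory protein (-3.30, limma's adjusted p = 0.0108), and GATA6, a transcription factor of steroid-producing cells (-0.55, limma's adjusted p = 0.018). MRAP read 7.70, 4.52, 4.31 and 5.76 on late regressed arrays, and without arrays 2 and 3 its difference was -2.14 (limma's adjusted p = 0.0434). On those 2 arrays MRAP lay below the background level of 4.64, so the size of -3.30 rests in part on background values. STAR, the cholesterol carrier before the FDX1-dependent step, read 13.54, 10.14, 9.68 and 11.92 on late regressed arrays, 13.15 to 13.69 on late functional and 13.38 to 13.66 on mid-late arrays. Its difference of -2.20 (limma's adjusted p = 0.0508) did not pass and was -0.79 without late regressed arrays 2 and 3, where FDX1 was also low. The nuclear receptor NR5A1 differed by -0.48 (limma's adjusted p = 0.116).

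Among the mitochondrial cytochromes that FDX1 can serve, 1 of 4 measured genes fell: CYP11B2, the aldosterone synthase (-0.35, limma's adjusted p = 0.0479). It was called in 3 of 12 fits that left out 1 array, and not without late regressed arrays 2 and 3 (-0.18, limma's adjusted p = 0.311). A second CYP11B2 probe set, of lower signal, was not called (-0.26, limma's adjusted p = 0.186). CYP11B1 had the largest difference of the list but was not called (-1.36, limma's adjusted p = 0.119). Its late regressed mean of 4.16 lay below the background level. The list's median was -0.22, and 3 of the 4 had limma's unadjusted p under 0.05, 2 of them lower. Of 7 measured genes that can supply mitochondrial NADPH, the electron source of FDXR, 1 fell, GLUD1, the glutamate dehydrogenase (-0.92, limma's adjusted p = 0.0159), and the median was -0.11. Of these 7, 3 had limma's unadjusted p under 0.05, all lower. GLUD1 read 7.65, 7.88, 7.10 and 7.21 on late regressed arrays, 7.12 to 7.72 on late functional and 8.11 to 8.54 on mid-late arrays, so both late groups lay below every mid-late gland. In late functional against mid-late glands GLUD1 had -0.85 (limma's adjusted p = 0.0588).

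FDX2, the iron-sulfur relative of FDX1, differed by 0.05 (limma's adjusted p = 0.788) between late regressed and mid-late glands. It read 6.96, 7.25, 7.15 and 6.93 on late regressed arrays, 6.82 to 7.08 on late functional and 6.83 to 7.14 on mid-late arrays. Late regressed arrays 2 and 3, the lowest in FDX1, were not low in FDX2 (7.25 and 7.15), and all 12 arrays lay between 6.82 and 7.25. Of 11 measured genes of iron-sulfur cluster assembly limma called 0, with 1 at an unadjusted p under 0.05 and a median of 0.00. The largest differences were -0.79 for the iron importer SLC25A37 (limma's adjusted p = 0.19) and 0.37 for GLRX5, a mitochondrial glutaredoxin (limma's adjusted p = 0.0847). SLC25A37 read 9.39, 7.17, 7.71 and 8.87 on late regressed arrays, against 8.89 to 9.24 on mid-late arrays, which is again low on arrays 2 and 3. Among 6 measured genes of lipoylation, the other use of FDX1 in human cells, limma also called 0, with 2 at an unadjusted p under 0.05 and a median of -0.26, and LIPT1, a lipoyltransferase (0.48), and PDHX, a component of the pyruvate dehydrogenase complex (-0.47), had the largest differences.

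The endoplasmic reticulum has its own electron supply, and there 2 of 9 measured genes fell. CYB5A, cytochrome b5 (-0.85, limma's adjusted p = 0.0106), and PGRMC1, a membrane heme protein (-0.64, limma's adjusted p = 0.013), were called in all 12 fits that left out 1 array, but not without late regressed arrays 2 and 3 together (limma's adjusted p = 0.0601 and 0.0699). POR, the reductase of the microsomal cytochromes and there the counterpart of FDXR, differed by -0.30 (limma's adjusted p = 0.446). POR read 9.65, 8.26, 8.73 and 9.02 on late regressed arrays, 9.08 to 9.59 on late functional and 8.94 to 9.53 on mid-late arrays, and its groups overlapped. The other 3 POR probe sets went the other way in late regressed against mid-late glands, by 0.46 to 0.54, and 1 of them, of lower signal, was called higher (0.54, limma's adjusted p = 0.036). Without late regressed arrays 2 and 3 the first POR probe set had 0.12 (limma's adjusted p = 0.781) and the called one 0.27 (limma's adjusted p = 0.172). The list's median was -0.20, and 3 of its 9 genes had limma's unadjusted p under 0.05, all lower.

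Of 11 measured steroid dehydrogenases and reductases other than HSD3B2, 3 fell and 1 rose, with a median of -0.34. At limma's unadjusted p under 0.05 there were 8 of the 11, 7 of them lower. DHRS9, a short-chain dehydrogenase of retinol and steroids (-3.46, limma's adjusted p = 0.00933), HSD11B1 (-3.13, limma's adjusted p = 0.00555) and HSD17B8 (-0.71, limma's adjusted p = 0.0106) fell, and AKR1D1, a reductase of progesterone and other steroids, rose (0.88, limma's adjusted p = 0.0145). All 4 were called in each of 12 fits that left out 1 array and without late regressed arrays 2 and 3, as was HSD3B2. Of 5 measured microsomal steroid cytochromes, CYP19A1, the aromatase (-3.09, limma's adjusted p = 0.0137), and CYP51A1, of cholesterol synthesis (-1.34, limma's adjusted p = 0.0248), fell. All 5 had limma's unadjusted p under 0.05, 3 of them lower. The third lower gene, CYP21A2, had group means of 4.37 to 4.62, below the background level of 4.64. CYP1B1 (2.16, limma's adjusted p = 0.0502) and CYP17A1 (0.61, limma's adjusted p = 0.0515) were higher but not called. Without late regressed arrays 2 and 3 CYP19A1 differed by -1.82 (limma's adjusted p = 0.0406), and CYP51A1 was not called (-0.80, limma's adjusted p = 0.147). A second CYP51A1 probe set was not called with all arrays (-1.43, limma's adjusted p = 0.0722).

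General genes of the membranes and matrix of the mitochondrion, in which FDX1 and FDXR work, were also counted. These are RNA values, and the amount of mitochondria was not measured. Limma called 0 of 16, with 3 at an unadjusted p under 0.05 and a median of -0.24, and the largest differences were -0.85 for UQCRC2, of respiratory complex III (limma's adjusted p = 0.108), and -0.52 for LONP1, a matrix protease (limma's adjusted p = 0.186). UQCRC2 read 10.47, 8.68, 9.55 and 10.54 on late regressed arrays, 10.43 to 10.71 on late functional and 10.59 to 10.77 on mid-late arrays, again low on arrays 2 and 3. The 3 of 16 at an unadjusted p under 0.05 are a smaller share than the 35.8% of all genes. Without late regressed arrays 2 and 3 the list medians were -0.02 for lipoylation, -0.05 for endoplasmic reticulum electron supply and -0.10 here. They were -0.32 for both progesterone synthesis and the steroid dehydrogenases and reductases, and -0.21 to 0.01 for the other lists. In late regressed against late functional glands and in late functional against mid-late glands limma called 0 genes in each of these 9 lists, members left out. At an unadjusted p under 0.05 there were 1 to 8 genes per list in the first comparison, the most among the steroid dehydrogenases and reductases, and 1 to 4 in the second, where 16.1% and 20.1% of all 14132 genes had one.

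**Figure D4:**
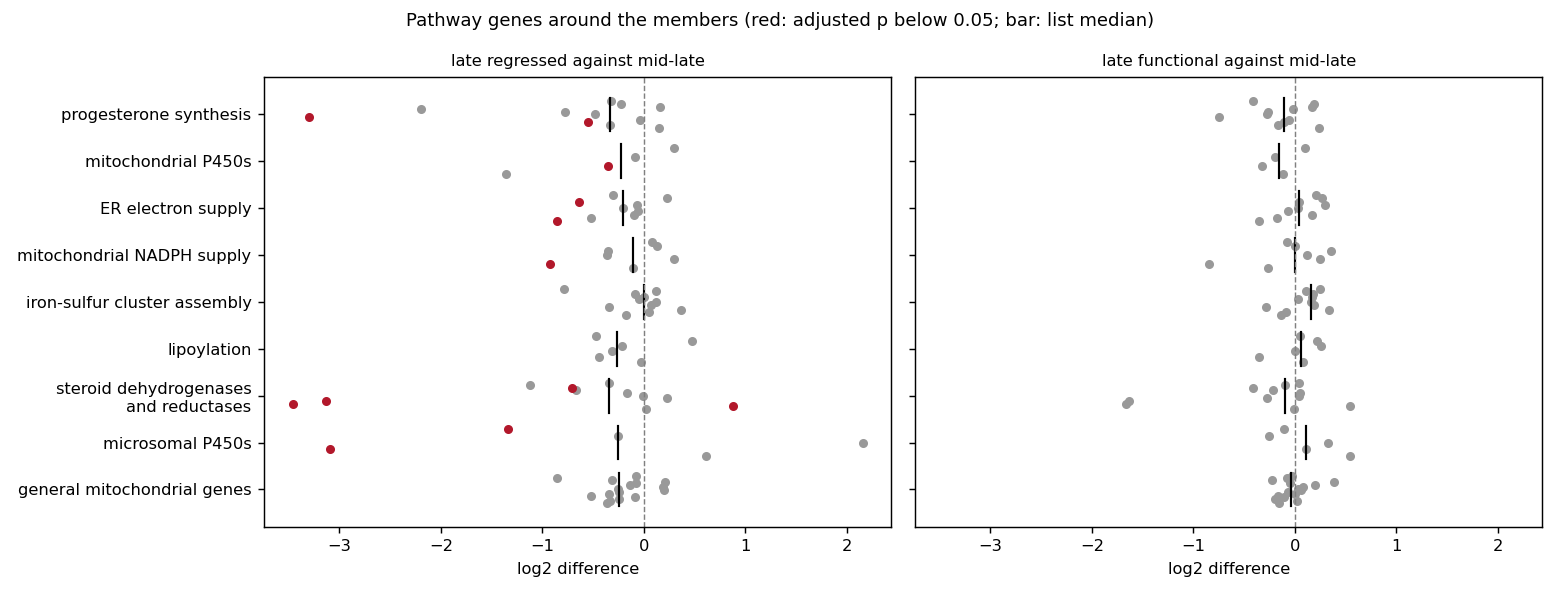
Log2 differences of the genes in the 9 pathway lists around the members (1 point per gene, members left out), as late regressed minus mid-late (left) and late functional minus mid-late glands (right). Red points have an adjusted p below 0.05 and black bars are list medians; on the left the medians run from -0.34 to 0.00, and on the right no point is red.

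A last measured fact touches all late against mid-late differences. The mean of the NC probe sets was 3.48 to 3.58 on late regressed, 3.53 to 3.61 on late functional and 3.65 to 3.75 on mid-late arrays, without overlap between late and mid-late glands (exact permutation p = 0.0286, adjusted over 3 comparisons 0.0429). With this mean as a covariate HSD3B2 had -2.54 and FDXR probe set 1 -1.17 in late regressed against mid-late glands (limma's adjusted p = 0.552 and 0.765), and FDX1 probe set 1 had 0.06. Background level and stage cannot be told apart in this design.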

How the data were processed

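The deposited table holds 1 log2 value per probe set and array. The authors made these log2 values with RMA, per the submitters' processing notes. The sources used here give no version, no settings and no scan dates, so no batch could be tested. RMA commonly forces arrays towards one distribution, which hides changes in total RNA per cell. The array medians were 4.30 to 4.43. Of 52865 probe sets, 158 array controls were left out. The platform annotation gave 1 symbol to 24956 of the 52707 tested, several to 361 and none to 27390. A gene with several probe sets is represented by the one with the highest mean.

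A model of 3 group means without covariates was fitted to all 12 arrays with limma 3.58.1 (lmFit, eBayes; R 4.3.3). Benjamini-Hochberg adjustment ran over all probe sets within a comparison, and calls had an adjusted p below 0.05. For measures with 1 value per array, exact permutation tests (two-sided) were used. Precision is limited by the number of arrays. The procedure was tested on simulated data.

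Alternatives comprised median centring, renewed quantile normalization, a filter on low signal, array weights, a robust prior with a trend, the replicate block, fits restricted to the groups compared, 2 covariates (3′ to 5′ difference, NC mean), a pseudocount of 16 on the linear scale, late regressed arrays 2 and 3 left out together, and each array left out.

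The members, lists, tests and alternatives were chosen with earlier results of these data known. Named genes are all member probe sets; for each pathway list up to 4 called genes with the largest differences in late regressed against mid-late glands, or up to 2 as values where none was called; STAR, CYP19A1, POR, CYB5A, FDX2 and NR5A1; and the 5 genes with the highest Pearson r to each member. CYP11B1 is given besides, as an uncalled gene with the largest difference of its list, and CYP21A2, CYP1B1 and CYP17A1 as the uncalled microsomal steroid cytochromes. No sequences are shown.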

Additional observations from a re-analysis of the deposited data

Results flagged for a closer look

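Of 27 sets of 4 arrays examined, 2 had 1 array far from the others, where chance gives about 1 in 20. Both concern late functional array 4. FDX1 probe set 3 read 7.00 there, with the nearest other late functional array at 6.06. FDX1 minus FDXR was 3.70 there, with the nearest other late functional array at 2.42. On that array HSD3B2 (9.04) and FDXR probe set 1 (9.20) were the lowest of their group and FDX1 probe set 1 (12.89) the highest, while the 3′ to 5′ difference (0.61) and the luteal marker mean (10.95) were within or near the range of the other late functional arrays.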

How the results depend on the processing

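HSD3B2 in late regressed against mid-late glands kept its call in 10 of 11 alternatives and in all 12 fits that left out 1 array (-3.28 to -2.90). The exception was the NC mean as covariate (-2.54, adjusted p = 0.552). With that covariate limma called 0 probe sets in late regressed against mid-late (4072 at an unadjusted p under 0.05), in late functional against mid-late (3471) and in late functional against the mean of the others (3988), and 0 for any difference. Member values with it were -1.20 (HSD3B2, late functional against mid-late, adjusted p = 0.751), -1.17 (FDXR probe set 1, late regressed against mid-late, 0.765), 0.06 (FDX1 probe set 1, the same comparison), and, in late functional against mid-late, 0.54, 0.12 and 0.35 for FDX1 probe sets 1 to 3 and 0.10 and 0.08 for those of FDXR.

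HSD3B2 in late functional against mid-late glands lost its call with median centring (-1.64, 0.0521), the filter on low signal (-1.69, 0.0514), the replicate block (-1.69, 0.0562) and the pseudocount (-1.67, 0.0502), and ran from -1.87 to -1.38 without single arrays. FDX1 probe set 1 there was 0.01 with median centring and -0.12 to 0.03 without single arrays. FDXR probe set 1 in late regressed against mid-late lost its call with the replicate block (-1.66, 0.056), array weights (-1.41, 0.055), the 3′ to 5′ covariate (-1.47, 0.0541), only the 2 groups (-1.66, 0.081) and without late regressed arrays 2 and 3 (-0.80, 0.191). Without single arrays it ran from -2.06 to -1.37, FDX1 probe set 1 from -0.80 to -0.39, and, in late regressed against late functional, HSD3B2 from -1.73 to -1.21 and FDXR probe set 1 from -1.75 to -1.06. FDX1 probe set 3 turned to 0.24 against mid-late and 0.36 against late functional without late regressed arrays 2 and 3. Without single arrays HSD3B2 minus FDXR in late regressed against late functional ran from -0.51 to 0.34, and FDX1 minus FDXR in late functional against mid-late from -0.07 to 0.44.

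Counts of calls moved more. Late regressed against mid-late (5282) had 2839 with array weights, 975 without late regressed arrays 2 and 3, 1620 with only the 2 groups and 2050 to 7532 without single arrays. Late regressed against late functional (1) had 2 with median centring, 5 with quantile normalization, 10 with the filter, 15 with the trended prior, 11 with array weights, 5 with the NC covariate, and 0 with the replicate block, the 3′ to 5′ covariate, late regressed arrays 2 and 3 left out and only the 2 groups (3646 to 6265 at an unadjusted p under 0.05), with 0 to 924 without single arrays. Late functional against mid-late (470) had 107 with the filter, 4 with the replicate block, 3106 with array weights, 883 with the 3′ to 5′ covariate, 2417 without late regressed arrays 2 and 3, 2682 with only the 2 groups and 4 to 1008 without single arrays. Late functional against the mean of the others (10) had 4 with the replicate block, 141 with array weights, 58 without late regressed arrays 2 and 3 and 1 to 64 without single arrays. Any difference (2587) had 1545 with the replicate block and 297 to 5221 without single arrays. The share of calls that were higher was 54.0% in late regressed against mid-late, 67.6% with median centring and 45.4% with quantile normalization, and 37.2%, 56.2% and 25.2% in late functional against mid-late.

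The sample labels name no pairing of replicate numbers across groups, and 3 of 12 correlations between same-numbered arrays exceeded 0.1. Whether same-numbered arrays shared a batch could not be tested. A fit of only the 2 groups was not run for the contrast of late functional with the mean of the others, which needs all 3. The cause of these shifts was not tested.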

Other observations

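LOC712957, which RefSeq (assembly T2T-MMU8v2.0) annotates as a pseudogene and places near HSD3B2, had a pattern close to that of HSD3B2. It was looked up after the values were seen, as 1 of 7 neighbours of HSD3B2 with a probe set. LOC712957 read 5.62, 5.32, 5.53 and 6.36 on late regressed arrays, 7.99, 7.71, 7.17 and 6.53 on late functional arrays, and 8.86, 10.05, 8.44 and 9.07 on mid-late arrays. The 3 groups did not overlap. Its late regressed minus mid-late difference was -3.40 (SE 0.38), a 10.5-fold lower level, with limma's adjusted p = 0.00548, and -3.12 without late regressed arrays 2 and 3 (limma's adjusted p = 0.0244). Late regressed minus late functional was -1.64 (limma's adjusted p = 0.173), and late functional minus mid-late was -1.76 (limma's adjusted p = 0.0551).

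LOC713091, a protein-coding neighbour, also passed in that comparison (limma's adjusted p = 0.0169), but not without late regressed arrays 2 and 3 (limma's adjusted p = 0.0848). It read 3.25 to 3.50 on late regressed and 3.43 to 3.81 on late functional arrays, and 4.17, 5.74, 4.51 and 4.35 on mid-late arrays 1 to 4. All but mid-late array 2 lie below the background level of 4.64, so no size of difference is given. These were 2 of 8 probe sets of HSD3B2 neighbours called lower in that comparison, against 4.61% of all probe sets tested. Among 7 probe sets of neighbours of FDX1, 1 was called in late regressed against mid-late glands, where 10.0% of all were called. It was POU2AF3 (limma's adjusted p = 0.0134), which was above 4.64 on late regressed array 2 (5.05) and below it on the other 11 arrays. In late functional against mid-late glands 1 of the 7 was called, where 0.892% of all were called. It was a ZC3H12C probe set that was higher (1.01, limma's adjusted p = 0.0481) and kept its call in 5 of 12 fits that left out 1 array. Among 7 of neighbours of FDXR limma called 0 in late regressed against mid-late glands, with 0 at an unadjusted p under 0.05. How far the probe sets of HSD3B2 and its neighbours bind one another's transcripts was not tested.

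Of 6 probe sets whose identifier starts with MmuMitochon, 4 spanned more than 4 log2 units over the 12 arrays, as did 236 of all probe sets tested. These 4 read 4.37 to 11.52 on late regressed arrays 2, 3 and 4, late functional array 4 and mid-late array 1. On the other 7 arrays they read 12.05 to 14.32. The low arrays belong to all 3 groups, and mid-late array 1 was not low in FDX1 (12.74) or HSD3B2 (11.64). In FDXR probe set 1 the same 5 arrays were the lowest of their groups: 7.78, 7.74 and 9.12 on late regressed arrays 2, 3 and 4, 9.20 on late functional array 4 and 9.95 on mid-late array 1. That relation was seen in the data and was not tested.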
